A study of Mus musculus with 6 samples.

Results

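The genes described here make and use microRNAs: Drosha and Dgcr8, which cut the primary transcript in the nucleus, Xpo5, which exports the precursor, Dicer1, which cuts it in the cytoplasm, the Argonautes Eif2c1, Eif2c2 and Eif2c3 (also called Ago1, Ago2 and Ago3), and the GW182 proteins Tnrc6a, Tnrc6b and Tnrc6c. Members were chosen by gene name: every array probe that carries the name of one of these 10 genes, controls left out. This gave 13 probes of 10 genes, out of 55681 probes and 32053 gene names on the array. Of the 13 probes, 11 probes of 9 genes were bright enough to be tested, and the probe of Eif2c3 and 1 of the 2 probes of Eif2c1 were not.

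The arrays measured RNA of the mouse pre-B cell line 1676, which has the genotype SLP-65-/- LAT-/- and was grown with an excess of IL-7 in all groups. Cells were transduced with retroviral vectors and selected with puromycin at 1 µg/ml. The control group (n = 2 arrays) carried the control vector, the miR-26a group (n = 2) a vector for hsa-miR-26a-2, and the sponge group (n = 2) a vector whose RNA sequesters members of the miR-26 family. The labels describe 2 independent experiments on separately made cell clones, and no array of a scrambled sponge is among the samples. The control titles also quote other sample identifiers, so whether the control cells were grown together with the rest is not certain, and the pairing by experiment used below rests on the replicate numbers. All 6 arrays lay on 1 slide, with each group in a column of its own and each replicate number in a row of its own, so the position on the slide and the group cannot be told apart. Each array had 59305 spots, of which 28823 to 29800 were well above background and 0 saturated. Precision is limited by the number of arrays.

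In the canonical pathway the microprocessor, a complex of the nuclease Drosha with the RNA-binding protein Dgcr8, frees a hairpin from a longer transcript. Exportin 5 carries the hairpin to the cytoplasm, where Dicer removes the loop, and 1 strand is loaded into an Argonaute protein. The Argonaute finds messages by pairing with the seed of the microRNA, and GW182 proteins bound to it recruit deadenylases and, through them, decapping enzymes. Early B cell development needs this machinery, since deletion of Dicer or of Argonaute 2 in mice impairs it.

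The sequences that the vectors add or sequester are shown because they define the miR-26a and sponge groups. RefSeq (GRCm38.p6) lists the same mature miR-26a-5p at 2 mouse loci (chr9:119031811-119031832 and chr10:126995543-126995564, plus strand) and miR-26b-5p at 1 (chr1:74394324-74394344, plus strand). Capitals mark the seed, bases 2 to 8, which both share.
mmu-miR-26a-5p: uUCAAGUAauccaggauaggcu
mmu-miR-26b-5p: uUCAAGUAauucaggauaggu
Counted from the 5′ end, miR-26b differs from miR-26a by C11U and C21U and is shorter by 1 base. The precursor of the Mir26a-2 locus (chr10:126995530-126995613, plus strand, 84 bases) is the mouse counterpart of the hairpin in the miR-26a vector, and its mature arm is in capitals.
Mir26a-2: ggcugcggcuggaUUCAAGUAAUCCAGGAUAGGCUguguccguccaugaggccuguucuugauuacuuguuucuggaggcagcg

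Pre-B cell markers were present in every array. Each of the 12 probes of the 10 marker genes exceeded background well on every array, and Vpreb1, a part of the surrogate light chain, was the brightest. Their summed normalized intensity was 689466 and 731763 in control, 666104 and 717633 in miR-26a and 677438 and 731227 in sponge arrays. The genotype itself was not checked. Probes for Blnk, which encodes SLP-65, and for Lat exceeded background well on every array, and where they lie relative to the deletions is not known. The Blnk probe (chr19:41003426-41003485, mm9) read 15.37 and 15.60 in control, 14.90 and 15.08 in miR-26a and 15.61 and 15.59 in sponge arrays on the log2 scale. It fell with miR-26a by 0.49 against control (adjusted p = 0.0275) and by 0.61 against sponge (adjusted p = 0.0123). Its part in the values below was not tested. Without the experiment block, control replicate 1, control replicate 2 or miR-26a replicate 1 the first of these calls was lost (adjusted p = 0.105, 0.132, 0.207 and 0.0662), and without sponge replicate 1 or 2 the second (adjusted p = 0.0750 and 0.0502).

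Levels below are log2 quantile-normalized intensities, and a change is the difference of such levels between group means with the experiment as a block. A probe passed the test at a limma p under 0.05 after Benjamini-Hochberg adjustment over 20168 tested probes. Intervals cover 95%. The 3 comparisons share arrays and 1 estimate of the spread, so their values stand side by side and are not independent of one another. In bulk RNA, fewer cells of a kind and less RNA per cell cannot be told apart.

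Each of the 13 member probes exceeded background well on every array, the untested ones included.

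**Figure D1:**
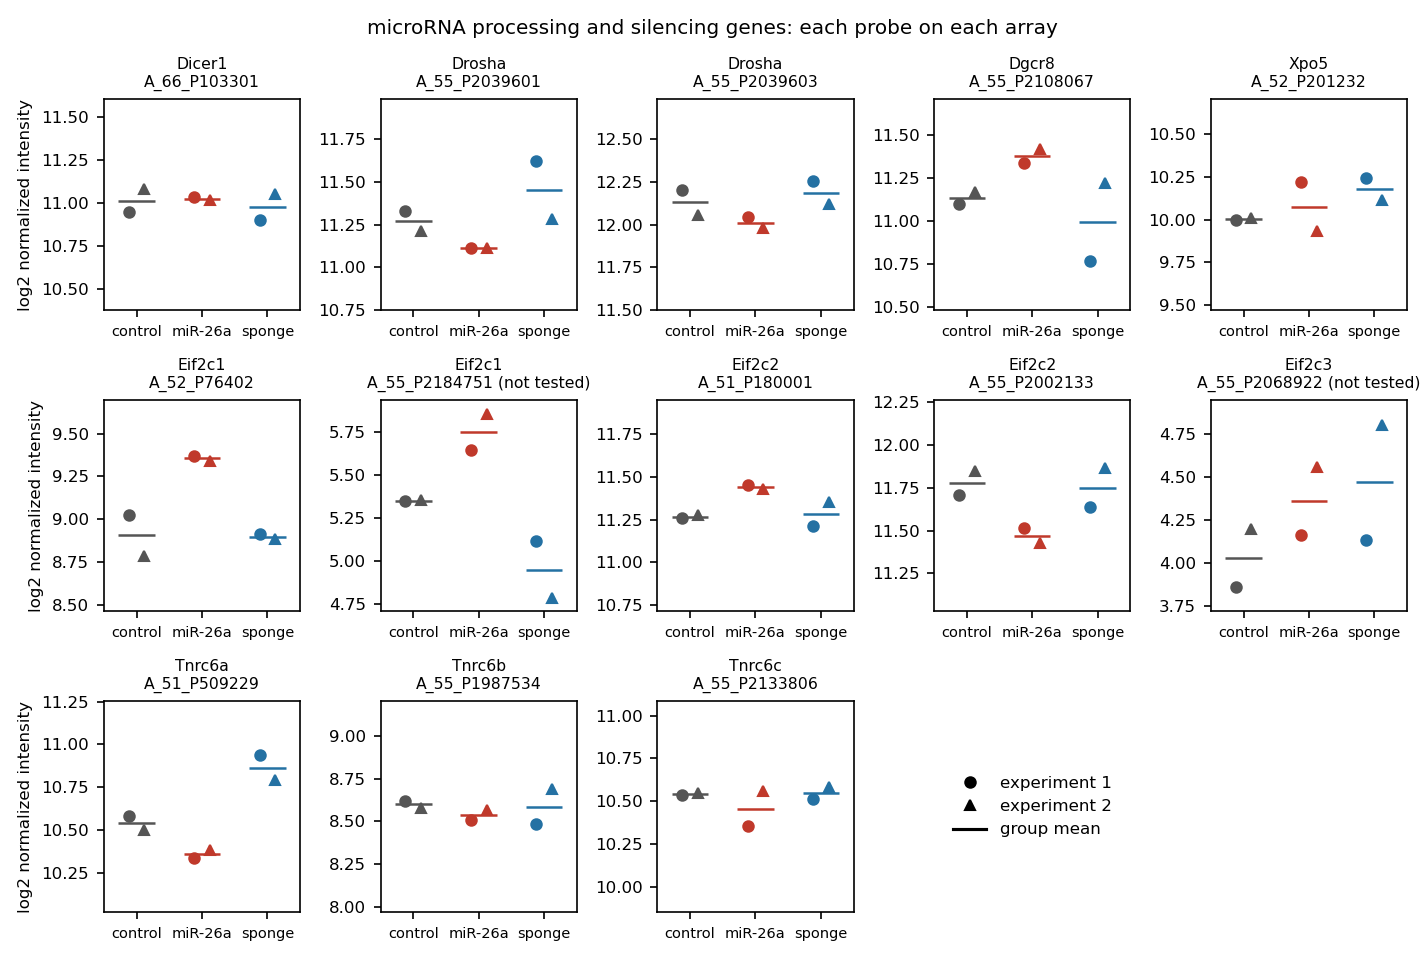
Log2 quantile-normalized intensity of each of the 13 member probes on the 6 arrays, by group (circles are experiment 1, triangles experiment 2, bars the mean of the 2 arrays of a group, and every panel spans the same number of log2 units). The miR-26a arrays lie above the other groups for Eif2c1 (9.37 and 9.34 at the tested probe) and below them for Tnrc6a (10.34 and 10.38).

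The comparison of miR-26a with control asks how the transcripts of the machinery stood when a microRNA was supplied in excess. Eif2c1, which encodes Argonaute 1, rose. Its tested probe (A_52_P76402, chr4:126112644-126112703, minus strand, mm9) had levels of 9.03 and 8.79 in control, 9.37 and 9.34 in miR-26a and 8.91 and 8.89 in sponge arrays. Both miR-26a arrays were above all 4 others, and the control and sponge arrays overlapped. The change was 0.45 (SE 0.08, interval 0.24 to 0.66, adjusted p = 0.0324), a ratio of 1.36, with 0.34 in experiment 1 and 0.55 in experiment 2. It missed the threshold without the block (adjusted p = 0.103), in a fit of all 55681 probes (0.300), in unpaired tests (0.396) and tests of the log ratios (0.466), without control replicate 1 (0.108), control replicate 2 (0.232) or miR-26a replicate 2 (0.101), and without either sponge array (0.0640). The adjusted p ranged from 0.0169 to 0.466 over 17 alternatives, of which 8 passed, and the change was positive in all 17.

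Eif2c1 was the only member to pass here, 1 of 11 tested probes, beside 9.64% of all tested probes (1036 lower and 908 higher). That number over all probes was 311 without the block (238 lower and 73 higher), 104 without control replicate 1 (75 lower and 29 higher), 133 without control replicate 2 (98 lower and 35 higher), 1288 without miR-26a replicate 2 and 1123 without either sponge array. At an unadjusted p under 0.05 there were 2 of 11, beside 27.3% of all probes. The control and miR-26a arrays did not overlap for 8 of 11 member probes, beside 49.3% of all probes. The median change of the 11 probes was -0.06, beside 0.01 for all tested probes, and the changes ran from -0.31 to 0.45. The absolute changes of all tested probes had a median of 0.119, and 95% of them were under 0.529, so the rise of Eif2c1 lay inside the range that 95% of probes covered.

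The comparison of sponge with control asks about the opposite manipulation, in which the family is sequestered. Here 0 of 11 member probes passed in limma, 1 of 11 at an unadjusted p under 0.05, and unpaired tests and tests of the log ratios also gave 0 after adjustment (0 and 1 unadjusted). All tested probes gave little more: 2 probes passed, both higher, which is 0.00992% of them, and 16.1% had an unadjusted p under 0.05. That count was 36 with normexp background correction (26 lower and 10 higher), 35 without either miR-26a array (22 lower and 13 higher) and 0 without either control or either sponge array. The unadjusted member was Tnrc6a, which encodes a GW182 protein, with a change of 0.32 (SE 0.08, interval 0.13 to 0.51, adjusted p = 0.222), 0.35 in experiment 1 and 0.29 in experiment 2. The sponge and control arrays did not overlap for 2 of 11 member probes, Tnrc6a and Xpo5, beside 37.7% of all probes. The median change of the members was 0.00, and that of all tested probes was also 0.00.

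The comparison of miR-26a with sponge sets added miR-26a against sequestered miR-26, neither of which the arrays measured. Tnrc6a fell and Eif2c1 rose. The Tnrc6a probe (A_51_P509229, chr7:130338627-130338686, plus strand, mm9) had levels of 10.58 and 10.50 in control, 10.34 and 10.38 in miR-26a and 10.94 and 10.79 in sponge arrays. No groups overlapped, and in both experiments the order was miR-26a, control, sponge from low to high. The change from sponge to miR-26a was -0.50 (SE 0.08, interval -0.70 to -0.31, adjusted p = 0.0146), a ratio of 0.705, with -0.60 in experiment 1 and -0.41 in experiment 2. The neighbours in that order did not pass: miR-26a against control had -0.18 (interval -0.37 to 0.01, adjusted p = 0.203), and sponge against control is given above. Against control the change was -0.10 without miR-26a replicate 1 and -0.26 without miR-26a replicate 2. The fall from sponge to miR-26a missed the threshold in a fit of all 55681 probes (adjusted p = 0.207), in unpaired tests (0.321) and tests of the log ratios (0.464). It was also lost without sponge replicate 1 (change -0.44) and without sponge replicate 2 (change -0.57). The adjusted p ranged from 0.00408 to 0.464 over 17 alternatives, of which 12 passed, and the change was negative in all 17.

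For Eif2c1 the change from sponge to miR-26a was 0.46 (SE 0.08, interval 0.25 to 0.66, adjusted p = 0.0227), a ratio of 1.37, with 0.46 in experiment 1 and 0.45 in experiment 2. The sponge and control groups did not differ beyond their spread, with a change of -0.01 (interval -0.22 to 0.20, adjusted p = 0.968) that turned positive with scaling to the 75th percentile (0.0066). The rise against sponge missed the threshold without the block (adjusted p = 0.0655), in a fit of all 55681 probes (0.240), in unpaired tests (0.267) and tests of the log ratios (0.391), without miR-26a replicate 2 (0.0684), without sponge replicate 1 (0.131) and without sponge replicate 2 (0.0874). The adjusted p ranged from 0.0140 to 0.391 over 17 alternatives, of which 10 passed.

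With 1 lower and 1 higher, 2 of 11 member probes passed in miR-26a against sponge, beside 16.8% of all tested probes (1712 lower and 1669 higher). That number over all probes was 997 without the block (632 lower and 365 higher), 432 without sponge replicate 1 (292 lower and 140 higher), 410 without sponge replicate 2 (285 lower and 125 higher) and 1883 without either control array. At an unadjusted p under 0.05 there were 6 of 11 (4 lower and 2 higher), beside 34.6%, and the groups did not overlap for 7 of 11, beside 50.9%. The median change of the members was -0.09, beside 0.02 for all tested probes.

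**Figure D2:**
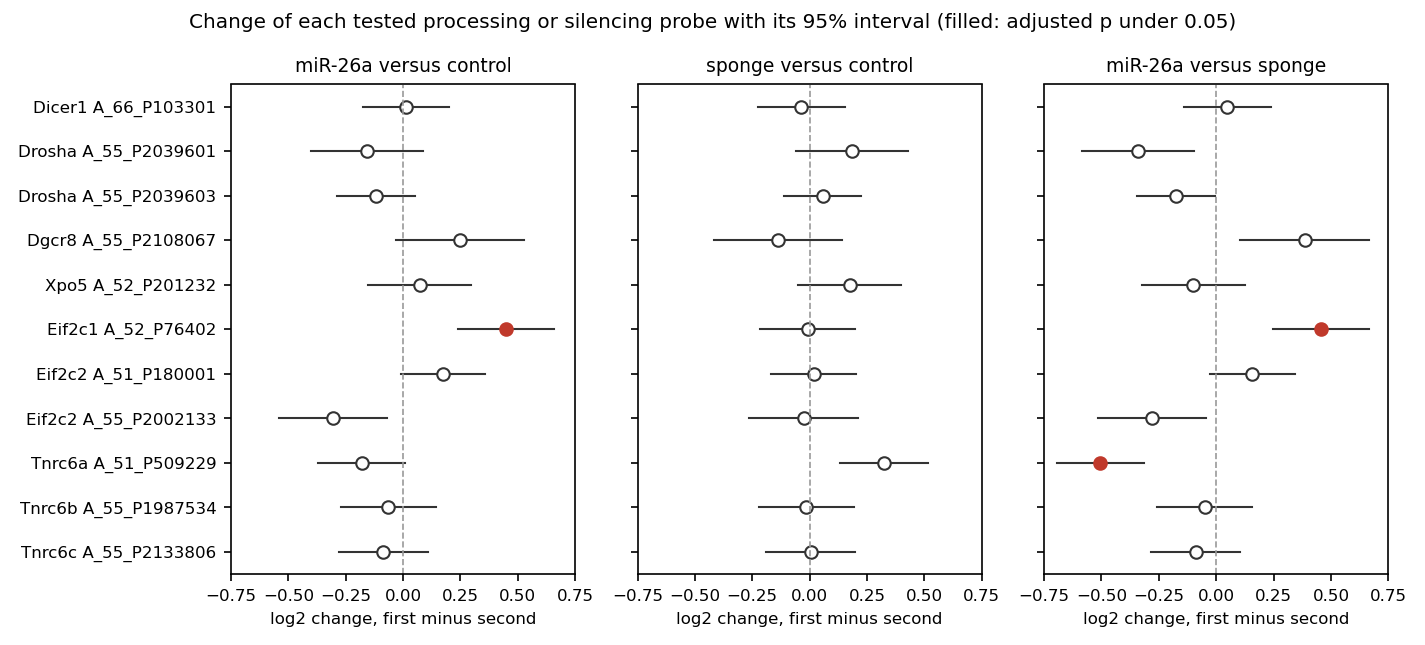
Log2 change of each of the 11 tested member probes in the 3 comparisons, with 95% intervals (filled points passed an adjusted p of 0.05). Eif2c1 stands at 0.45 against control and 0.46 against sponge, Tnrc6a at -0.50 against sponge, and the intervals of Dicer1, Xpo5, Tnrc6b and Tnrc6c span 0 in all 3 comparisons.

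In the microprocessor, neither subunit passed. Dgcr8 (A_55_P2108067, chr16:18254226-18254285, minus strand) had levels of 11.10 and 11.17 in control, 11.34 and 11.42 in miR-26a and 10.77 and 11.22 in sponge arrays. The miR-26a arrays were the highest 2 of the 6, and the control and sponge arrays overlapped because sponge replicate 1 was the lowest of all and sponge replicate 2 lay above both controls. The change was 0.25 against control (adjusted p = 0.230) and 0.39 against sponge (interval 0.11 to 0.67, adjusted p = 0.0724), with 0.57 in experiment 1 and 0.20 in experiment 2. Dgcr8 passed against sponge with normexp background correction (0.35, adjusted p = 0.0475; 0.0475 to 0.568 over 17 alternatives).

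Drosha, the nuclease of the complex, has 2 probes whose starts lie 197 bases apart on chromosome 15. At the first (A_55_P2039601, chr15:12864964-12865023, plus strand) the levels were 11.33 and 11.21 in control, 11.11 and 11.11 in miR-26a and 11.62 and 11.28 in sponge arrays. At the other (A_55_P2039603, chr15:12864767-12864826, plus strand) they were 12.20 and 12.06, 12.04 and 11.98, and 12.25 and 12.12 in the same order. At both probes the miR-26a arrays were below every other array. The changes against sponge were -0.34 (adjusted p = 0.0692) and -0.18 (adjusted p = 0.134), and those against control were -0.16 (adjusted p = 0.367) and -0.12 (adjusted p = 0.328). Over 17 alternatives the first probe ranged from -0.48 to -0.20 against sponge and from -0.27 to -0.04 against control. The other ranged from -0.26 to -0.09 against sponge and from -0.16 to -0.08 against control. The first probe passed against sponge with normexp background correction (-0.35, adjusted p = 0.0456) and without miR-26a replicate 2 (-0.45, adjusted p = 0.0497), and its adjusted p ranged from 0.0456 to 0.564 over 17 alternatives. Drosha and Dgcr8 had changes of opposite sign with miR-26a in both comparisons, and the difference between the genes was not tested. With the sponge against control the changes were 0.18 and 0.06 for Drosha and -0.14 for Dgcr8, and the second turned to -0.0098 with normexp background correction and the last to 0.049 without sponge replicate 1.

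Of the export and dicing steps, Xpo5 and Dicer1 had 1 probe each. Xpo5 (A_52_P201232, chr17:46378755-46378814, plus strand) read 10.00 and 10.01 in control, 10.22 and 9.93 in miR-26a and 10.24 and 10.11 in sponge arrays, so the miR-26a arrays enclosed the controls. Its changes were 0.07 with miR-26a (adjusted p = 0.665) and 0.17 with the sponge (interval -0.05 to 0.40, adjusted p = 0.398). Over 17 alternatives its change with the sponge ranged from 0.066 to 0.28. Dicer1 (A_66_P103301, chr12:105926064-105926123, minus strand) read 10.95 and 11.08 in control, 11.03 and 11.02 in miR-26a and 10.90 and 11.05 in sponge arrays. The 3 groups of Dicer1 overlapped, and its changes were 0.01 with miR-26a (interval -0.18 to 0.20, adjusted p = 0.940), -0.04 with the sponge (interval -0.22 to 0.15, adjusted p = 0.836) and 0.05 between miR-26a and sponge (interval -0.14 to 0.24, adjusted p = 0.687).

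Among the Argonautes, Eif2c2 encodes Argonaute 2, the family member that can slice its target. Its 2 probes start 1158 bases apart and had changes of opposite sign. The probe A_51_P180001 (chr15:72936863-72936922, minus strand) read 11.26 and 11.27 in control, 11.45 and 11.43 in miR-26a and 11.21 and 11.35 in sponge arrays. The probe A_55_P2002133 (chr15:72935705-72935764, minus strand) read 11.71 and 11.85 in control, 11.51 and 11.43 in miR-26a and 11.64 and 11.86 in sponge arrays. Thus the miR-26a arrays were the highest 2 at one probe and the lowest 2 at the other. Against control the changes were 0.17 (interval -0.01 to 0.36, adjusted p = 0.205) and -0.31 (interval -0.54 to -0.07, adjusted p = 0.107), and against sponge 0.16 (adjusted p = 0.198) and -0.28 (adjusted p = 0.100). Averaging both probes before the fit gave -0.07 against control (adjusted p = 0.645). The second probe passed against sponge without miR-26a replicate 1 (-0.41, adjusted p = 0.0485; 0.0485 to 0.617 over 17 alternatives). The files do not say which transcript forms each probe detects, so no direction is given for Eif2c2.

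The dim probes of Eif2c1 and Eif2c3 were below the signal limit of 50 on too many arrays to be tested. The second Eif2c1 probe (A_55_P2184751, chr4:126117202-126117261, minus strand, start 4558 bases from the tested one) had a processed signal of 30.6 to 56.5 and levels of 5.35 and 5.36 in control, 5.64 and 5.86 in miR-26a and 5.11 and 4.79 in sponge arrays. Its miR-26a arrays were the highest 2 and its sponge arrays the lowest 2. In the fit of all 55681 probes its changes were 0.40 (adjusted p = 0.541) with miR-26a, -0.40 (adjusted p = 0.707) with the sponge and 0.80 (adjusted p = 0.250, unadjusted under 0.05) between them. The Eif2c3 probe (A_55_P2068922, chr4:126032332-126032391, minus strand, processed signal 14.9 to 31.0) read 3.86 and 4.20 in control, 4.16 and 4.56 in miR-26a and 4.13 and 4.81 in sponge arrays, and its groups overlapped. Its changes in that fit were 0.33 (adjusted p = 0.467) with miR-26a, 0.44 with the sponge (adjusted p = 0.619, unadjusted under 0.05) and -0.11 (adjusted p = 0.785) between them.

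The other GW182 genes had values near those of control. Tnrc6b (A_55_P1987534, chr15:80759793-80759852, plus strand) ranged from 8.49 to 8.69 over the 6 arrays and Tnrc6c (A_55_P2133806, chr11:117624691-117624750, plus strand) from 10.36 to 10.58. Against control their changes with miR-26a were -0.06 (interval -0.27 to 0.14) and -0.09 (interval -0.28 to 0.11), and with the sponge -0.01 and 0.00. Between miR-26a and sponge they were -0.05 and -0.09, with adjusted p of 0.707 and 0.460. Whether Tnrc6a differed from Tnrc6b and Tnrc6c in its response was not tested.

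Other genes with a like pattern were sought among 14713 tested probes whose gene name is a RefSeq symbol or synonym, by the correlation of log2 levels over the 6 arrays after subtraction of each experiment's mean. For Eif2c1 the highest were Txlng (r = 0.9998), Steap3 (r = 0.9993) and D10Jhu81e (r = 0.9990), and 47 probes exceeded 0.99. For Tnrc6a they were Pja2 (r = 0.9973), Ubr3 (r = 0.9972) and Cenpk (r = 0.9971), and 31 probes exceeded 0.99. A high correlation does not mean a change of like size. D10Jhu81e, Pja2 and Cenpk passed in no comparison, with changes from sponge to miR-26a of 0.22, -0.16 and -0.23. Txlng (0.34) and Ubr3 (-0.62) passed against sponge only, and Steap3 (0.37) passed against sponge and against control. The limit to RefSeq names was set after a search of all names had returned unnamed transcripts. With 6 arrays that share group and experiment such values are a description only.

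The wider pathway was covered by 6 lists with 71 genes, of which 69 were on the array with 96 probes, and 84 probes of 63 genes were tested. Against control 3 of the 84 passed with miR-26a (1 lower and 2 higher), beside 9.64% of all tested probes, and against sponge 8 passed (3 lower and 5 higher), beside 16.8%. Neither count exceeds the share of all tested probes. With the sponge against control 0 passed in limma, beside 0.00992% of all tested probes, and 5 at an unadjusted p under 0.05, beside 16.1%. Unpaired tests and tests of the log ratios also gave 0 (8 and 5 unadjusted). The median changes were 0.04, 0.02 and 0.01 in that order.

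Eif2c4, the Argonaute 4 gene, was lower with miR-26a at each of its 2 probes, and 1 of them passed. The probe A_52_P27122 had levels of 6.51 and 6.32 in control, 6.05 and 5.70 in miR-26a and 6.29 and 6.18 in sponge arrays, with miR-26a lowest. It fell by 0.54 against control (SE 0.08, adjusted p = 0.0198) and by 0.36 against sponge (SE 0.08, adjusted p = 0.0391). The other probe, 2375 bases away, had changes of -0.54 (SE 0.21, adjusted p = 0.175) and -0.58 (SE 0.21, adjusted p = 0.118). With normexp background correction the change of A_52_P27122 against control shrank to -0.28 (adjusted p = 0.0554), and that against sponge to -0.17 (adjusted p = 0.160). The call against control passed in 8 of 17 alternatives and was also lost without the block (adjusted p = 0.139) and with averaged probes (0.0761). The call against sponge passed in 4 of 17, and was also lost without the block (0.204), with 75th percentile scaling (0.0819), averaged probes (0.0795) and array weights (0.0574). Piwil1, Piwil2 and Piwil4, the germline branch of the family, were not well above background on any array.

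Of the 16 tested probes of decapping and P body genes, 2 rose against control, beside 9.64% of all tested probes, and 2 rose and 1 fell against sponge, beside 16.8%, which are shares near those of all probes. The median change was 0.13 in both comparisons, beside 0.01 and 0.02 for all tested probes. Dcp2, the decapping enzyme, had levels of 7.72 and 7.73 in control, 8.01 and 8.12 in miR-26a and 7.58 and 7.56 in sponge arrays. Dcp1a, its activator, had levels of 9.90 and 9.98 in control, 10.28 and 10.27 in miR-26a and 9.94 and 9.87 in sponge arrays. For both genes the miR-26a arrays were above all others. Dcp2 rose by 0.34 against control (adjusted p = 0.0443) and by 0.50 against sponge (adjusted p = 0.0132), and Dcp1a by 0.34 (adjusted p = 0.0453) and 0.38 (adjusted p = 0.0260). Ddx6, a helicase that links GW182 and deadenylase complexes to decapping, fell by 0.29 against sponge (adjusted p = 0.0416).

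Among 21 tested probes of deadenylation genes, 0 passed against control in limma, beside 9.64% of all tested probes. At an unadjusted p under 0.05 there were 2, beside 27.3%. Against sponge 2 rose and 1 fell, beside 16.8%. Tob2, an adaptor of the deadenylase complex, rose by 0.46 (adjusted p = 0.0257), and Pabpc4, a poly(A)-binding protein, by 0.36 (adjusted p = 0.0299). Cnot6l, a catalytic deadenylase subunit, fell by 0.40 at A_51_P208031 (adjusted p = 0.0184), and its other probe did not pass. In the list on tailing and decay of small RNAs, 1 of 13 probes passed against sponge, beside 16.8% of all tested probes, and 0 against control (4 unadjusted), beside 9.64% (27.3% unadjusted). The probe that passed was that of Lin28a. Lin28a, which blocks let-7 maturation, rose by 0.46 (adjusted p = 0.0246), or by 0.27 with normexp background correction (adjusted p = 0.0362).

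The microprocessor partners and the Dicer partners gave 0 calls in limma against control (1 of 20 and 3 of 12 probes at an unadjusted p under 0.05) and 0 against sponge (2 and 5 unadjusted). Beside these stand 9.64% and 16.8% of all tested probes after adjustment, and 27.3% and 34.6% unadjusted. The smallest p against control among the microprocessor partners were those of 1 probe each of Ran and Adar. Ran, the GTPase of nuclear export, had 0.25 at A_55_P2037111 (adjusted p = 0.0802) and 0.07 at its other, brighter probe (adjusted p = 0.624). Adar, an RNA editor, had -0.20 at A_52_P183181 (adjusted p = 0.264) and -0.07 at its other, brighter probe (adjusted p = 0.588). Among the Dicer partners they were those of Tarbp2, which binds Dicer directly (0.27, adjusted p = 0.111), and Fkbp4, a cochaperone of Hsp90 (0.21, adjusted p = 0.145). By unpaired tests and tests of the log ratios 0 of the 84 and 0 of all 20168 tested probes passed in any comparison. Unadjusted, 12 and 7 of the 84 had a p under 0.05 against control, and 8 and 6 against sponge. The unadjusted shares of all probes were not counted for these tests, so such counts, here and above, have no share beside them.

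Each of these pathway calls was lost when some single arrays were left out. Against control, Eif2c4 missed the threshold without control replicate 1 (adjusted p = 0.144), control replicate 2 (0.158) or miR-26a replicate 2 (0.0561), and Dcp2 and Dcp1a without any 1 of the 6 arrays (up to 0.275 and 0.317). Against sponge, Dcp2 missed it without sponge replicate 1 (0.0743) or 2 (0.0803), and Tob2 without miR-26a replicate 2 (0.0780) or sponge replicate 1 (0.144) or 2 (0.0954). Dcp1a, Ddx6 and Cnot6l missed it without any 1 of the 6 arrays (up to 0.118, 0.155 and 0.101), Eif2c4 without any but miR-26a replicate 1 (up to 0.162), and Pabpc4 and Lin28a without any but miR-26a replicate 2 (up to 0.143 and 0.113).

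Other settings ended some of these calls too. Without the block, Dcp2 and Dcp1a missed the threshold against control (adjusted p = 0.109 for each), and against sponge Tob2 (0.0579), Pabpc4 (0.192), Dcp1a (0.0576), Ddx6 (0.111) and Lin28a (0.0771) did, while Dcp2 and Cnot6l passed. Against control Dcp2 was also lost with normexp background correction (0.0597), and Dcp2 and Dcp1a with the filter on all 6 arrays and a signal over 50 on 2 (0.0519 and 0.0534). Ddx6 was lost with array weights (0.0650). All pathway calls were lost in the fit of all 55681 probes, where no probe passed. Against control Dcp2 passed in 5 of 17 alternatives and Dcp1a in 6, and against sponge Dcp2 in 12, Tob2 in 10, Cnot6l, Pabpc4 and Lin28a in 8 each, Dcp1a in 7 and Ddx6 in 6.

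**Figure D3:**
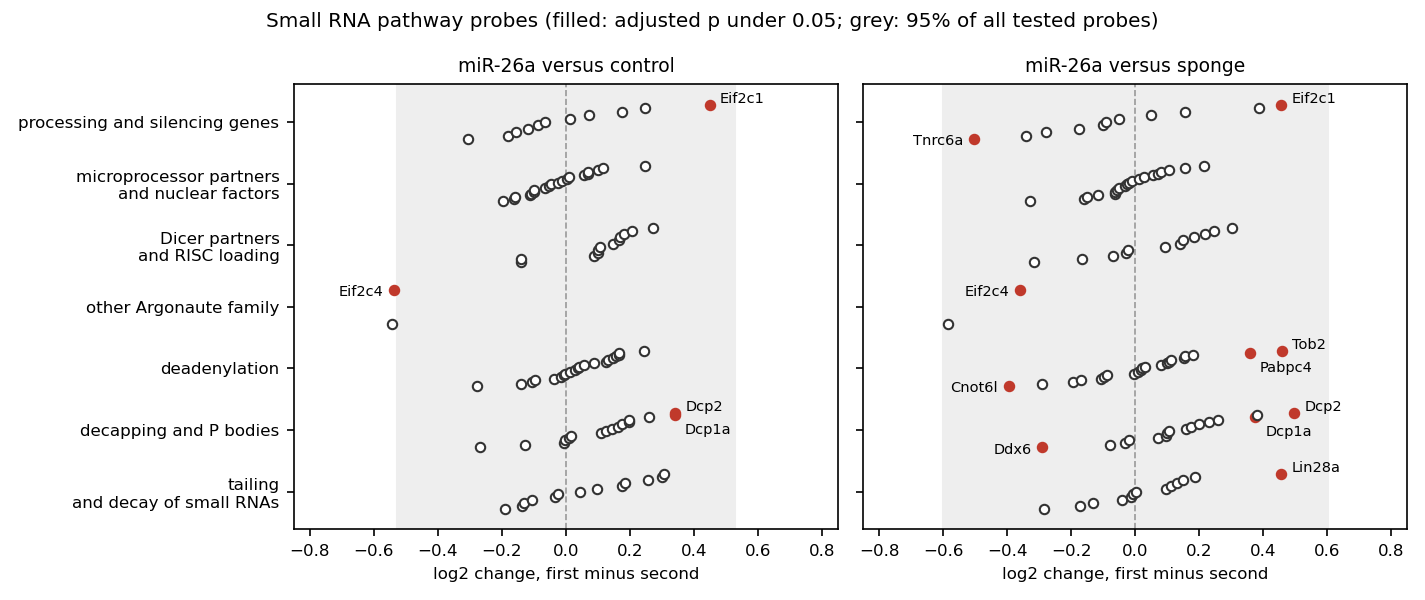
Log2 change of the tested probes of the processing and silencing genes and of the 6 lists of other pathway genes, miR-26a against control and against sponge (filled points passed an adjusted p of 0.05, grey marks the range within which 95% of absolute changes of all tested probes lay, 0.529 and 0.602). Filled points lie on both sides of 0, with Eif2c4 at -0.54 and Eif2c1 at 0.45 against control.

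Matches to the seed were sought in the 60-base probe sequences, as TACTTGA (pairing with bases 2 to 8) and ACTTGAA (bases 2 to 7 followed by A). The words overlap in TACTTGAA. Of the 20168 tested probes, 0.441% held TACTTGA, 0.739% ACTTGAA and 0.188% both as TACTTGAA, and 78, 113 and 25 probes held these words on the opposite strand. None of the 13 member probes held any of them on either strand, which says only that these letters are not in these windows. Among the 96 pathway probes 3 held a word: Tsn, Rqcd1 and Ajuba, the last not well above background on any array. The windows of the other 2 are shown because they are the places where the array reads a seed match in a pathway transcript (mm9, capitals mark the word).
Tsn (chr1:120195167-120195196, minus strand): gtgttgtgattcTACTTGAgagtttagaag
Rqcd1 (chr1:74576744-74576773, plus strand): gtgtctcatacACTTGAAgatgtctatatt
Tsn, a small RNA-binding protein of the C3PO nuclease, had changes of -0.14 against control (adjusted p = 0.449) and -0.31 against sponge (adjusted p = 0.0920). Rqcd1, a subunit of the deadenylase complex, had changes of 0.04 (adjusted p = 0.763) and -0.11 (adjusted p = 0.317). Neither passed, and a word in a probe is a match, not a site shown to work.

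Markers of other blood cells were read for the same arrays. For the counts that follow, the shares of all tested probes were 9.64% (27.3% unadjusted) for miR-26a against control, 0.00992% (16.1%) for sponge against control and 16.8% (34.6%) for miR-26a against sponge. Of 7 T cell probes 2 were tested (Cd3e and Cd4), and none of these 2 passed in limma in any comparison (2 lower with the sponge at an unadjusted p under 0.05, 0 with miR-26a against control and 1 higher against sponge). The summed normalized intensity of the list was 1426 and 1401 in control, 1312 and 1433 in miR-26a and 1085 and 1220 in sponge arrays, with Cd4 brightest, and Cd3g was not well above background on any array. Of 11 myeloid probes 5 were tested, with sums of 3928 and 5041, 4131 and 4834, and 3299 and 4753 in the same order and Itgam brightest. With the sponge against control 0 of these 5 passed in limma, and 2 were lower at an unadjusted p under 0.05, with changes of the list from -0.69 to 0.09 and a median of -0.20. Between miR-26a and sponge 0 passed, with 1 lower and 1 higher unadjusted, changes from -0.30 to 0.65 and a median of 0.17 (0.25 for the T cell probes). In both comparisons these were probes of Itgam and Csf1r, the latter named after its values were seen. With miR-26a against control 1 of the 5 passed, and the median of the list was -0.04, with changes from -0.82 to 0.06. This Itgam probe, A_55_P1977929, fell with miR-26a by 0.82 against control (adjusted p = 0.00720), a call lost without control replicate 1 (adjusted p = 0.0766) or 2 (0.0674), while its other tested probe had a change of 0.06 (adjusted p = 0.744) and averaging its tested probes gave -0.38 (adjusted p = 0.0494). Cd14 was not well above background on any array, and Lyz2 was so on 1. Of the 12 pre-B probes 0 passed in limma against control with miR-26a (3 lower and 1 higher unadjusted, median -0.07) or with the sponge (0 unadjusted, median -0.06). Between miR-26a and sponge 1 passed (2 lower and 1 higher unadjusted), and the changes ran from -0.36 to 0.25 with a median of -0.01. The probe that passed, A_51_P122855 of Pax5, fell there by 0.36 (adjusted p = 0.0280). That call was lost without the block (adjusted p = 0.0703) and without any 1 array but miR-26a replicate 1, with changes from -0.42 to -0.30 when 1 array was left out. The other Pax5 probe was also lower, with means of 8.70 in miR-26a and 8.95 in sponge arrays, but did not pass. The part of these markers in the values of Eif2c1 and Tnrc6a was not tested.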

How the data were processed

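RNA of 6 cell samples was hybridized to 1-colour Agilent mouse arrays. For each array the authors deposited the intensity of every spot (mean, local background and background-subtracted processed signal) and other values, the 0 or 1 flags (Feature Extraction 10.7.3.1 per the file headers, 10.7.1.1 per the labels). Their table of quantile-normalized intensity, deposited on a linear scale, served as an alternative and correlated with the matching arrays at 0.99987 or more (log2 scale).

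Here the processed signals underwent quantile normalization and a log2 transform, without outlier spots except where a probe had no other (0 to 7 probes per array). Tested were probes well above background on at least 1 array with a signal above 50 on at least 4 of 6. limma 3.58.1 in R 4.3.3 (two-sided, Benjamini-Hochberg) was fitted to all 6 arrays with group and experiment, the latter taken from the replicate number. Across probes, deviations from the group mean correlated between arrays of 1 number (0.38, 0.59 and 0.45), and replicates correlated at 0.996 to 0.997.

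Named were all members, the 3 most similar probes, and list genes past the threshold (at most 4 per list and comparison). For lists with none past it in the miR-26a comparisons, the 2 with the smallest p for miR-26a against control were named. The members and lists were chosen with earlier results of these data known. Alternatives were no block, other scaling, normexp with an offset of 50, the deposited table, other filters, unpaired tests, tests of the log ratios, averaged probes, array weights and leaving out each array. UTRs were not searched, for want of an mm9 annotation.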

Additional observations from a re-analysis of the deposited data

How the results depend on the processing

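Over 17 alternatives, Eif2c1 and Tnrc6a kept the sign of each change that passed, and how often each passed is given with its values. Without the experiment block both Eif2c1 calls were lost and the Tnrc6a call stood (adjusted p = 0.0395), and without the filter on dim probes all 3 were lost. On each array 29.6% to 33.6% of spots carried a substitute value set by the scanner software in place of a measured signal, where no change can be read. A group left with 1 array was assumed to vary like the others. Unless stated, the cause of a lost call was not tested.

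Without the block, miR-26a against control gave 0 member probes, 311 of all tested probes and 0 of the other pathway probes, and miR-26a against sponge 1, 997 and 2. With no filter, where 55681 probes share the adjustment, unpaired tests or tests of the log ratios, 0 probes passed in any comparison, members, all probes and other pathway probes alike. With normexp, miR-26a against sponge gave 4 of 11 member and 13 of 84 other pathway probes, beside 3711 of all 20168 tested probes. For miR-26a against control it gave 1 member and 1 other pathway probe, beside 2295 of all tested probes. For sponge against control it gave 36 of all probes (26 lower and 10 higher). Sponge against control gave 4 of all probes with 75th percentile scaling (1 lower and 3 higher) and 0 with averaged probes. With the filter on all 6 arrays and a signal over 50 on 2, miR-26a against control gave 1 other pathway probe. Of all 20878 probes tested there, 1780 passed. Array weights gave 6 other pathway probes in that comparison, beside 2675 of all 20168 tested probes. Leaving out each array gave 0 to 1 member probes, 104 to 1599 of all probes and 0 to 2 other pathway probes for miR-26a against control. For miR-26a against sponge it gave 0 to 3, 410 to 2436 and 0 to 5, and for sponge against control 0 to 35 of all probes.

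Changes that did not pass turned sign as follows. With 75th percentile scaling, Cd4 had 0.00081 for miR-26a against control, and for sponge against control Dicer1 had 0.021, Eif2c1 0.0066 and Eif2c2 (A_55_P2002133) 0.033. With normexp, sponge against control gave -0.0098 for Drosha (A_55_P2039603) and 0.014 for Eif2c1. With both probes averaged, Eif2c2 had -0.066 and -0.061 for miR-26a against control and sponge and -0.0048 for sponge against control, as the construction of that mean gives.

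Leaving out each array, miR-26a against control ranged from -0.065 to 0.091 for Dicer1, -0.039 to 0.19 for Xpo5, -0.15 to 0.021 for Tnrc6b, -0.24 to 0.070 for Cd3e and -0.079 to 0.021 for Cd4. Sponge against control ranged from -0.082 to 0.0098 for Dicer1, -0.33 to 0.049 for Dgcr8, -0.11 to 0.098 for Eif2c1, -0.053 to 0.088 for Eif2c2 at A_51_P180001 and -0.13 to 0.072 at A_55_P2002133, -0.11 to 0.082 for Tnrc6b and -0.059 to 0.067 for Tnrc6c. Comparing miR-26a with sponge, Dicer1 ranged from -0.029 to 0.13, Xpo5 from -0.21 to 0.012 and Tnrc6b from -0.15 to 0.046.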
